A study of Mus musculus with 3 samples.

Results

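Ptn, the gene of pleiotrophin, is 1 of the 125 targets of an amplicon panel that was read in single cells of mouse bone marrow. It was chosen by its symbol, and because it had stood out between fetal and adult marrow in these data its levels are given as a description, with no test. The series holds 3 libraries of wild-type C57/B6 mice, with 1 library per group. The E18.5 EC library holds endothelial cells sorted from fetal marrow, the E18.5 bone marrow (BM) library holds marrow cells of the same embryonic stage, and the adult BM library holds marrow cells of adult mice. The marrow cells had been depleted of mature blood cells with lineage antibodies on magnetic beads. The submitters describe the endothelial sort as based on CD31 and endomucin, while the methods name CD31 alone. Each library pooled several animals, the age of the adult mice is not given in the sources used here, and the cells inside 1 library share their source. Fetal and adult stage can therefore not be told apart from the library itself, its preparation, its depth and its pipeline run.

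Pleiotrophin is a small secreted growth factor that binds heparin and belongs with midkine to a family of its own. Outside the cell it acts through receptor-type tyrosine phosphatases such as Ptprz1, through Alk and through proteoglycans such as the syndecans. In adult bone marrow it is known as a niche factor of vessel-lining and reticular stromal cells that helps to keep blood stem cells in the marrow. A niche factor here means a protein by which neighbouring cells support stem cells. Of 18 genes of the pathway that were listed (the ligands, their receptors and co-receptors), Ptn was the only one on the panel, so none of its receptors was measured.

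Ptn lies on the minus strand of chromosome 6 (chr6:36714929-36810220, GRCm38) and has 5 exons in GENCODE M21. The panel reads 1 amplicon of the transcript ENSMUST00000101534.4, named as ending at the end of the reference. The last exon (chr6:36714929-36715762) holds the stop codon and the 3′ UTR. The amplicon sequence was not used here, and no part of the gene is printed.

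A molecule is a cDNA counted once by its unique molecular identifier, and the counts used are those left after the pipeline's distribution-based error correction. A minimum of 20 molecules and 5 targets per cell left 4038 cells in the E18.5 EC library, 12844 in the E18.5 BM library and 7939 in the adult BM library. These held 432750, 1836371 and 6303440 panel molecules, with medians of 83, 97 and 242 molecules per cell. Of the barcodes, 58 were shared by both fetal libraries, 113 by the E18.5 BM and adult libraries and 38 by the E18.5 EC and adult libraries. Without these barcodes the 4 main ratios between stages (3 classes and all cells) stayed inside their own intervals. Levels are Ptn molecules per 10000 panel molecules, and the interval after a value is an exact 95% interval that covers counting error only. Molecules of 1 cell are not independent, so the true uncertainty is wider.

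Ptn was found in 479 cells of the E18.5 EC library, 1390 cells of the E18.5 BM library and 250 cells of the adult BM library. The 3 libraries held 1800, 13538 and 556 Ptn molecules, which were 41.6, 73.7 and 0.882 per 10000. The error correction had kept 28.7%, 45.0% and 31.1% of the raw Ptn molecules. Over all marrow cells the fetal level was 83.6 times the adult level (interval 76.8 to 91.1). That value moves with the scale, because 316 osteoblast-like and 434 cartilage-like cells held 1820459 and 1862830 of the adult molecules. Per cell the ratio was 15.1, at 1.05 Ptn molecules per fetal cell against 0.0700 per adult cell.

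Cells were grouped by clustering on panel targets other than Ptn, and clusters were named from markers. Endothelial-like cells line vessels and carry Pecam1 and Kdr. Mural-like cells wrap vessels and carry the contractile genes Acta2 and Tagln and the pericyte gene Rgs5. Fibroblast-like cells are matrix cells with Postn, Aspn and Ccn3. Reticular-like cells are the adult Lepr and Cxcl12 stroma, and Ptprc-rich cells are blood cells. The names are rebuilt from few targets and are not an annotation by the authors. Pecam1 was found in 100% of endothelial-like cells of each library. At E18.5, Postn was found in 99.8% of fibroblast-like cells and Acta2 in 96.9% of mural-like cells. In the adult library, Aspn was found in 88.9% of fibroblast-like cells and Ccn3 in 86.3%, but Postn in only 20.6%. The adult mural-like cells were less clean, as 64.6% of them also held Pecam1.

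Ptn at E18.5 was above all a transcript of fibroblast-like cells. In the E18.5 BM library the 1132 fibroblast-like cells made up 8.81% of the cells and held 12776 of the 13538 Ptn molecules, a share of 94.4% (interval 94.0 to 94.8). Their level was 429.5 per 10000 (422.1 to 437.0). The 405 endothelial-like cells stood at 60.5 (53.1 to 68.7) and the 161 mural-like cells at 37.7 (32.9 to 42.9). The 10617 Ptprc-rich cells, which are the class that should lack the gene, stood at 1.23 (1.04 to 1.44). The intervals of neighbours in this order did not overlap, but the order of endothelial-like and mural-like cells depends on the scale. Per cell, mural-like cells held 1.40 Ptn molecules and endothelial-like cells 0.588, and after thinning to 50 molecules their levels were 72.5 and 50.2 per 10000. The fibroblast-like level was 7.10 times that of endothelial-like cells (6.25 to 8.11) and 11.4 times that of mural-like cells (9.99 to 13.1). The share depends on where the class is drawn. When each cell was classed by its own marker molecules instead of by clusters, fibroblast-like cells held 54.8% of Ptn molecules.

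In the adult library the order per 10000 differed. The 1655 endothelial-like cells had the highest level, 9.57 per 10000 (8.35 to 10.9), from 220 molecules. The 306 fibroblast-like cells followed at 6.84 (5.43 to 8.52), from 80 molecules, and the ratio of these neighbours was 1.40 (1.08 to 1.83). This order also turns with the scale, since fibroblast-like cells held 0.261 Ptn molecules per cell and endothelial-like cells 0.133. At 100 molecules, 6.74% of fibroblast-like (4.10 to 10.3) and 4.09% of endothelial-like cells (2.91 to 5.57) held Ptn. The 2265 reticular-like cells, the stroma that holds most of the marrow's Cxcl12, stood at 1.27 (1.05 to 1.52). Adult Ptprc-rich cells stood at 0.692 (0.368 to 1.18) and mural-like cells at 0.549 (0.251 to 1.04), a difference within counting error. Reticular-like cells were 1.83 times the Ptprc-rich level (1.03 to 3.54), so the lower end of that interval lies next to 1. Osteoblast-like cells, led by the osteocalcin gene Bglap, stood at 0.280 (0.209 to 0.368), below the Ptprc-rich level per 10000. Per cell they held 0.161 Ptn molecules, above the 0.00750 of Ptprc-rich and the 0.133 of endothelial-like cells. The median depth of osteoblast-like cells was 5485 molecules, against 90 for Ptprc-rich cells. At 100 molecules, 0.316% of osteoblast-like (0.00801 to 1.75) and 0.663% of Ptprc-rich cells (0.216 to 1.54) held Ptn, with overlapping intervals.

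**Figure D1:**
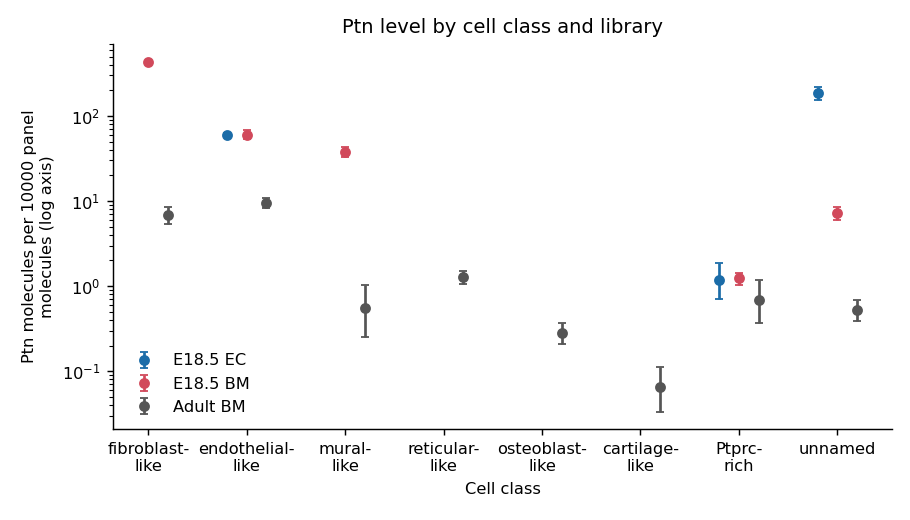
Ptn molecules per 10000 panel molecules (log axis) in each cell class, with a point per library (E18.5 EC blue, E18.5 BM red, adult BM grey) and bars for the exact 95% interval of the count. Fetal fibroblast-like cells stand at 429.5, both fetal endothelial-like groups next to 60, and all 3 Ptprc-rich groups near 1.

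Adult cartilage-like cells held next to no Ptn, and no cluster was named cartilage-like at E18.5. The 434 adult cells of this class, with the cartilage matrix genes Col2a1 and Acan in front, held 12 Ptn molecules in 9 cells, or 0.0644 per 10000 (0.0333 to 0.113). That was below the adult Ptprc-rich level per 10000, at a ratio of 0.0931 (0.0388 to 0.221). Per cell the direction turned, at 0.0276 Ptn molecules against 0.00750 in Ptprc-rich cells. The median depths were 4007.5 and 90 molecules per cell. At E18.5 the nearest group was a cluster of 169 cells led by Col10a1, Mmp13 and Col2a1, which mixes markers of late cartilage and of bone and was left unnamed. It held 36 Ptn molecules in 15 cells, or 2.16 per 10000 (1.51 to 2.99). Its level was 1.76 times that of the fetal Ptprc-rich cells (1.19 to 2.54), and thinned to 50 molecules 3.27% of its cells held Ptn (1.07 to 7.46), so it lay above that class on both measures.

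Depth differs between the classes, so each cell was also thinned at random to 50 panel molecules and shallower cells were left out. At this equal depth Ptn was found in 80.6% of fetal fibroblast-like cells (78.2 to 82.9), against 96.5% without thinning. It was found in 21.9% of fetal mural-like cells (15.7 to 29.1) and in 9.79% of fetal endothelial-like cells of the BM library (6.79 to 13.5). Without thinning these shares were 45.3% and 11.6%. Fetal Ptprc-rich cells gave 0.682% (0.518 to 0.881), which serves as the background share of free RNA and of stray cells. Their median was 89 molecules before thinning, against 238.5 for fibroblast-like and 307 for mural-like cells. All 3 stromal and vascular classes at E18.5 were above it, though 222 of the 225 mural-like Ptn molecules were in cells that also held Postn.

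In adult cells thinned in the same way, the share was 3.13% of endothelial-like cells (2.32 to 4.12), 2.32% of fibroblast-like cells (0.937 to 4.72) and 0.398% of reticular-like cells (0.182 to 0.753). The adult Ptprc-rich share was 0.245% (0.0667 to 0.625), which overlaps the reticular-like share. Without thinning the shares were 4.47%, 12.4%, 3.44% and 0.404%. Reticular-like cells with Ptn were thus not distinguishable from background at this depth. None of 434 thinned cartilage-like cells held Ptn, which allows a share of up to 0.691%.

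The amount per cell separated the classes as much as the share did. At a depth of 100 molecules, fetal fibroblast-like cells held a median of 4 Ptn molecules. Of 1049 such cells, 109 held 10 or more and 97 held none. Fetal endothelial-like cells were split instead, as 780 of 966 cells in the E18.5 EC library held none and 15 held 10 or more. In fetal mural-like cells 2 of 157 held 5 or more. In the adult library 1 of 930 endothelial-like cells and none of 282 fibroblast-like cells reached 10.

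**Figure D2:**
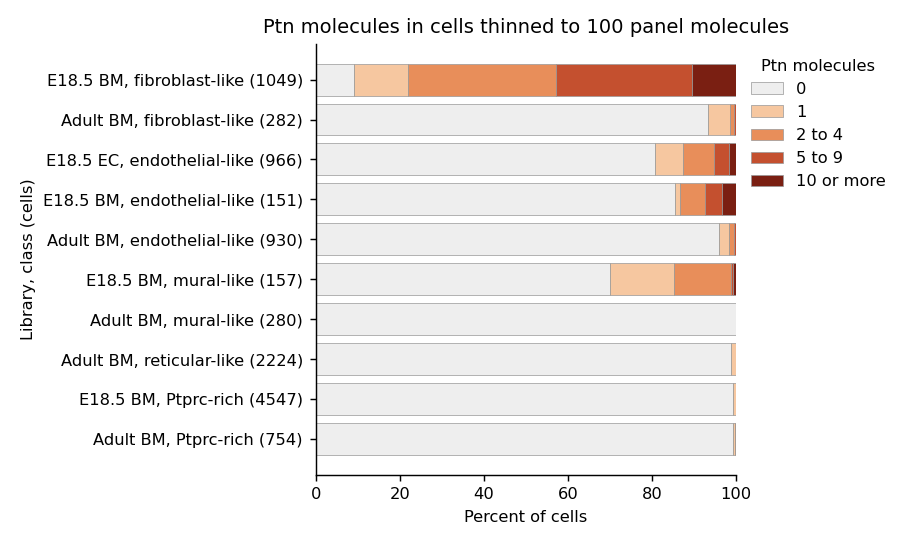
Percent of cells (x axis, 0 to 100) by the number of Ptn molecules found after each cell was thinned to 100 panel molecules, for 10 combinations of library and class with the cell count in brackets. Fetal fibroblast-like cells spread over all bins, fetal endothelial-like cells are mostly at 0 with a tail of 10 or more, and Ptprc-rich cells are nearly all at 0.

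Sorted and unsorted fetal endothelial-like cells did not differ in Ptn beyond counting error. In the E18.5 EC library the 3031 endothelial-like cells held 1649 Ptn molecules, or 60.3 per 10000 (57.5 to 63.3). The ratio to the endothelial-like cells of the E18.5 BM library was 0.997 (0.870 to 1.15). The Ptprc-rich cells of both libraries were also level, at 1.18 and 1.23 per 10000, with a ratio of 0.960 (0.554 to 1.57). Postn, the leading matrix target of fibroblast-like cells, was found in 0.528% of the sorted endothelial-like cells and in 9.38% of those in the BM library. Endothelial-like cells of the BM library without Postn stood at 61.6 (53.7 to 70.3) and those with Postn at 50.2 (30.2 to 78.4).

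A further 133 Ptn molecules of the E18.5 EC library, 7.39% of its total, came from a cluster of 25 cells. This cluster was led by Postn, Aspn, Rgs5 and Notch3, mixed fibroblast and mural markers, and was left unnamed. Its level was 186 per 10000 (156 to 220), and 16% of its cells held Pecam1. An unnamed cluster of 49 cells in the E18.5 BM library, led by Sema3g, Vcan and Postn, stood at 177 (145 to 215). Fetal fibroblast-like cells stood 2.31 times above the first (1.95 to 2.76) and 2.42 times above the second (1.997 to 2.97).

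Blood cells held little of the Ptn. The 152 Ptn molecules in fetal Ptprc-rich cells were 1.12% of the library's total. They were not spread evenly, because the 1705 Ptprc-rich cells that also held Postn, Aspn or Ccn3 stood at 3.56 per 10000 (2.79 to 4.47). The 8912 without these fibroblast targets stood at 0.768 (0.608 to 0.957), so the former were 4.64 times higher (3.32 to 6.45). In the other direction, fetal fibroblast-like cells that held Ptprc had a level of 359 (343 to 376), lower than the 445 (437 to 454) of those without, at a ratio of 0.807 (0.769 to 0.847). No doublet caller was run, and the part that barcodes with markers of both classes have in these values was not tested.

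Within fetal fibroblast-like cells Ptn was high throughout. Clustered on their own, they formed 6 subclusters whose Ptn level ranged from 313 to 650.2 per 10000. The highest was a subcluster of 151 cells led by Stc1, Scrg1, Prg4, Car3 and Col2a1, which include the joint lubricant gene Prg4 and cartilage-associated genes. Only 43.7% of these cells held Aspn, and 92.5% held Ptn when thinned to 50 molecules. The lowest was a subcluster of 125 cells led by Srgn and Ptprc, 90.4% of which held Ptprc. The highest was 2.08 times the lowest (1.93 to 2.24). A subcluster led by the osteocalcin genes Bglap2 and Bglap stood at 456 (435 to 478), near the class as a whole. By contrast, 4 adult fibroblast-like subclusters ranged from 3.46 to 9.85, all below every fetal one.

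Endothelial-like subclusters differed far more among themselves. In the E18.5 EC library 474 cells led by Vwf, the gene of a blood clotting factor, and Fbln5 stood at 11.3 (8.26 to 15.2). A subcluster of 573 cells led by Apln, the gene of the peptide apelin of growing capillaries, stood at 95.3 (87.6 to 104), a ratio of 8.41 (6.20 to 11.7). In the E18.5 BM library the highest were 106 cells led by Vwf, Ecm1, Hey1 and Sema3g at 199 (170 to 230), and the Apln-led cells were low at 12.5 (7.91 to 18.7). The ratio of these 2 was 15.9 (10.3 to 25.8). The subclusters of the 2 fetal libraries therefore did not rank alike, although their mean levels did not differ beyond counting error.

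In adult endothelial-like cells 55 of the 220 Ptn molecules came from 26 cells. This small subcluster, led by Postn, S100a4, Apln, Ccn3 and Cdh13, stood at 126 (95.0 to 164), but only 8 of its cells held Ptn. It was 6.22 times the next, 445 cells led by Apln, which stood at 20.3 (16.7 to 24.3) and held 114 molecules. The 10 adult endothelial-like cells with the most Ptn held 38.6% of the class's Ptn, so that level rests on few cells. The same share was 56.2% in adult fibroblast-like cells. At E18.5 it was 58.8% in endothelial-like cells of the BM library, 43.1% in mural-like cells, 13.8% in endothelial-like cells of the EC library and 4.08% in fibroblast-like cells. The classes with few Ptn molecules, fetal ones included, thus rest on few cells.

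**Figure D3:**
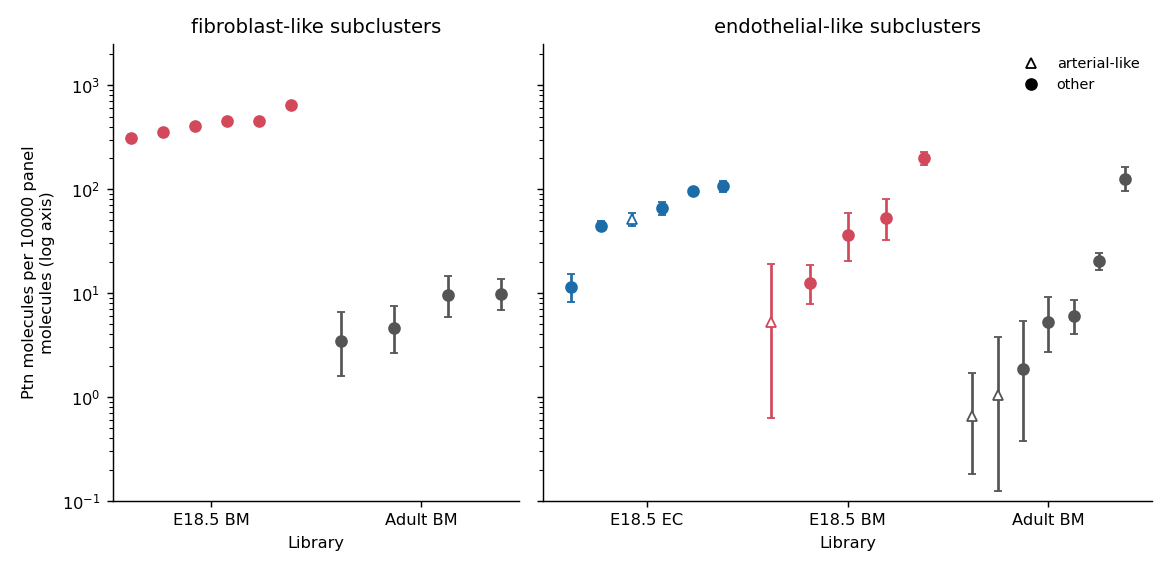
Ptn molecules per 10000 panel molecules (log axis) in each subcluster of fibroblast-like (left) and endothelial-like cells (right), in order within each library, with exact 95% count intervals; open triangles are arterial-like. The 6 fetal fibroblast-like subclusters lie between 313 and 650.2, while adult endothelial-like subclusters run from 0.661 to 126.

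Arterial endothelial cells were read apart, as subclusters with 3 or more arterial genes among their 10 leading targets. These had to outnumber the sinusoidal genes and stand ahead of them. The arterial list included Gja4, Sema3g, Hey1 and Fbln5. Of the adult arterial-like cells, 146 formed a subcluster led by Alpl, Mgp, Acta2 and Hey1. In the E18.5 EC library 272 arterial-like cells held 194 Ptn molecules, or 51.3 per 10000 (44.3 to 59.1), against 61.8 in the other endothelial-like cells. The ratio was 0.830 (0.711 to 0.965). This direction turned when cells were called arterial by at least 2 arterial markers of their own, at 1.19 (1.07 to 1.31). In the adult library 450 arterial-like cells held 6 Ptn molecules, or 0.752 per 10000, against 14.3 in the others, at a ratio of 0.0527 (0.0191 to 0.117). There the direction held by cells' own markers, at 0.514 (0.391 to 0.675). With the arterial-like cluster of the whole library in place of subclusters, the adult ratio was 0.199 (0.126 to 0.303). In the E18.5 BM library only 37 cells were arterial-like, with 2 Ptn molecules in 1 cell. The 106 cells with the highest Ptn level there, 199 per 10000, had Hey1 and Sema3g among their leading targets but were not called arterial-like. The 37 cells therefore do not stand for all cells with arterial genes in that library.

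The fetal to adult contrast was large in each class of stroma and vessel. Fibroblast-like cells held 429.5 per 10000 at E18.5 and 6.84 in the adult, a ratio of 62.8 (50.4 to 79.2). Of 88 targets compared in this class, 42% were at least 2-fold higher at E18.5, and the median ratio over them was 1.47. Ptn, chosen because it had stood out between the stages, had the highest ratio of the 87 targets that adult cells of the class held at all. The receptor gene Lgr5, with 155 molecules at E18.5 and 0 in the adult, was the other. Next to Ptn stood the Wnt pathway transcription factor Lef1 at 52.5 (14.4 to 435) from 2 adult molecules. The cell cycle genes Ccne1 at 38.4 (20.1 to 84.3) and Top2a at 24.1 (18.46 to 32.0) followed. Ptprc had a ratio of 22.0 (12.5 to 42.9) in the same cells, on 673 and 12 molecules, so blood-cell RNA also differed between the fetal and adult class, and its part was not tested. Without the cells that held Ptprc or Pecam1 the Ptn ratio was 67.7 (53.4 to 87.0). Postn too was 15.3 times higher at E18.5 (14.8 to 15.9). Among cells that held Postn, Ptn stood at 429.5 against 9.98, a ratio of 43.0 (30.3 to 63.3).

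At the lower end of the same comparison stood Prg4 at 0.00204 (0.00147 to 0.00276) and the osteocalcin gene Bglap3 at 0.00721 (0.00516 to 0.00982). Tagln at 0.0231 (0.0199 to 0.0267) and S100a4 at 0.0333 (0.0320 to 0.0347) followed, so the targets moved both ways. The fibroblast-like cells of the 2 stages were not alike in these targets, and the part of this in the Ptn ratio was not tested. The niche chemokine Cxcl12 was lower at E18.5 in fibroblast-like cells, at a ratio of 0.586 (0.542 to 0.635), and stem cell factor Kitl was higher at 6.62 (5.73 to 7.69). Lepr, the leptin receptor of adult stroma, stood at 0.464 (0.296 to 0.729), and the bone matrix gene Spp1 at 0.303 (0.257 to 0.358). Wnt2 stood at 0.593 (0.520 to 0.676), while the R-spondin gene Rspo2 at 0.925 (0.807 to 1.06) did not differ beyond counting error. Of the 7 targets on the panel that were listed as niche factors, Ptn had the highest ratio in this class. Ptn was chosen, and the list made, with earlier results of these data known, so this rank is a description only.

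Mural-like cells held 225 Ptn molecules at E18.5, or 37.7 per 10000, and 9 in the adult, or 0.549. The ratio was 68.6 (35.5 to 152), in a class where 36.6% of 71 targets were at least 2-fold higher at E18.5. The adult value rests on 2 cells, which held 8 and 1 molecules. All 9 were in cells that also held Pecam1. The 109 adult mural-like cells without Pecam1 held 0 Ptn molecules, which allows up to 0.593 per 10000 with a floor of 3 molecules over the group and up to 0.730 by the exact interval. The fetal mural-like cells without Pecam1 stood at 41.6 (36.4 to 47.5). Ptn was seventh in this class, behind the cell cycle genes Top2a, Mki67 and Cdk1, the Wnt-related secreted factor Dkk3, the osteoclast enzyme Acp5 and the matrix proteoglycan Vcan. The named classes are not alike at the 2 stages, because Postn was also 15.2 times higher in the fetal mural-like cells (14.1 to 16.4). The 146 fetal mural-like cells with Postn held 222 Ptn molecules, or 43.0 per 10000 (37.5 to 49.0). The 15 without Postn held 3, or 3.73 (0.768 to 10.9). In the adult class all 9 Ptn molecules were in cells with Postn. Whether Ptn in this class comes from cells mixed with fibroblast-like ones was not tested.

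Endothelial-like cells showed a smaller contrast. They held 60.3 per 10000 in the E18.5 EC library and 9.57 in the adult library, a ratio of 6.30 (5.47 to 7.29). With the E18.5 BM library as the fetal side, the ratio was 6.32 (5.24 to 7.63). Of 81 targets, 25.9% were at least 2-fold higher at E18.5 and the median ratio was 1.11. Ptn was again seventh, after Wnt2 at 33.9 (17.7 to 74.8), Cdk1, Top2a, Mki67, Ccne1 and Apln at 7.44 (7.02 to 7.89). Kitl differed little in these cells at 1.26 (1.22 to 1.30), and Cxcl12 was lower at E18.5 at 0.159 (0.152 to 0.167). Among arterial-like cells alone the Ptn levels were 51.3 and 0.752, a ratio of 68.3 (30.8 to 188) on 6 adult molecules. The size of this contrast depends on the definition and on the fetal library. When whole-library clusters defined arterial-like cells, Ptn stood at 51.7 (E18.5 EC) and 2.78 (adult). With E18.5 BM as the fetal side, 37 arterial-like cells stood at 5.23 (0.633 to 18.9) on 2 molecules. Outside the arterial-like subclusters, the ratio of E18.5 EC over adult was 4.33 (3.75 to 5.02). Ptprc-rich cells gave 1.78 (1.01 to 3.42), an interval that starts next to 1.

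**Figure D4:**
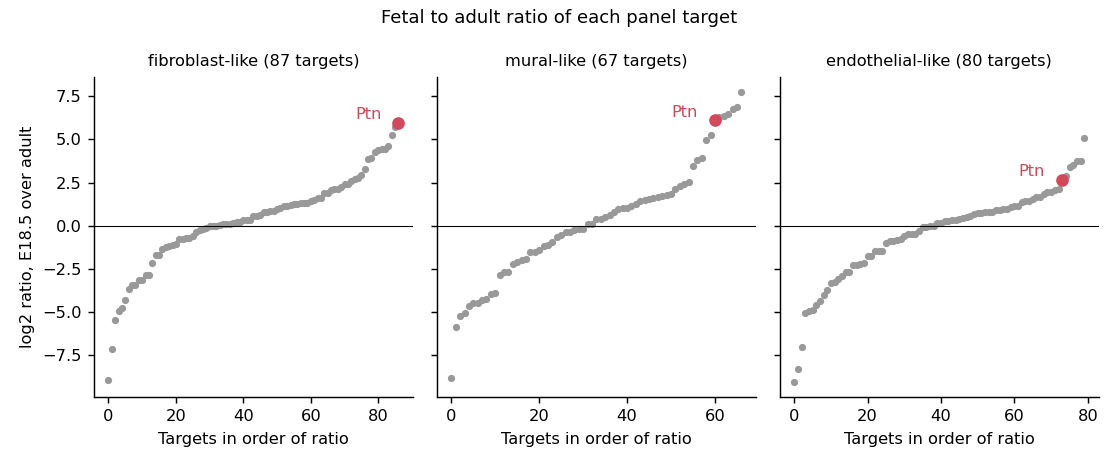
log2 ratio of E18.5 over adult level for each panel target with molecules at both stages, in order, in fibroblast-like, mural-like (both E18.5 BM against adult BM) and endothelial-like cells (E18.5 EC against adult BM), with Ptn in red. Ptn is the highest point in fibroblast-like cells and seventh from the top in the other classes.

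Co-expressed targets were read at equal depth, in cells thinned to 50 molecules, as the level of each target in cells with Ptn over its level in cells without Ptn, both per 10000 molecules other than Ptn. The targets described here kept an interval on the same side of 1 with another random draw and at 100 molecules, unless stated. Among thinned fetal fibroblast-like cells, 898 held Ptn and 216 did not, while 1092 of all 1132 held it before thinning. Cells counted as without Ptn can therefore hold it at full depth, here and in the classes below. Of 71 targets, 3 were higher in cells with Ptn. Cxcl12 stood at 82.3 against 41.7, a ratio of 1.97 (1.44 to 2.76). Kitl stood at 127 against 85.2, a ratio of 1.49 (1.19 to 1.88), and the proteoglycan Vcan at 1.32 (1.19 to 1.47). Lower were Aspn at 0.818 (0.761 to 0.879), the blood-cell proteoglycan Srgn at 0.807 (0.662 to 0.989) and the contractile gene Tagln at 0.285 (0.143 to 0.571). Postn was level, at 4426 and 4394. Wnt11 was at 36.0 against 19.4 and Wnt2 at 11.9 against 27.8, and neither kept its side in every setting.

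Fetal mural-like cells with Ptn leaned to the matrix side of the class. The 35 cells with Ptn, against 125 without, held more of the matrix genes Mgp at 2.62 (2.31 to 2.97), Postn at 1.77 (1.52 to 2.07), Aspn at 1.90 (1.50 to 2.39) and Ccn3 at 2.19 (1.59 to 2.99). Vcan stood at 2.41 (1.47 to 3.90) and Dkk3, a secreted protein of the Dickkopf family, at 3.53 (2.28 to 5.46). They held less of the contractile genes Acta2 at 0.347 (0.297 to 0.403) and Tagln at 0.369 (0.285 to 0.473), and of Rgs5 at 0.595 (0.480 to 0.732). The gap junction gene Gja4 had 0 molecules in the cells with Ptn and 35 in those without. Cells of this class with Ptn were shallower before thinning, with a median of 208 molecules against 339.

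In endothelial-like cells of the E18.5 EC library 287 cells held Ptn and 1997 did not. Higher in cells with Ptn were Sema3g at 128 against 66.0, a ratio of 1.94 (1.63 to 2.29), Ecm1 at 1.40 (1.18 to 1.65), Igfbp7 at 1.29 (1.24 to 1.35) and the VEGF receptor gene Kdr at 1.12 (1.001 to 1.26). Lef1 was higher at 5.48 (2.04 to 14.2), on 9 cells against 11. Lower were Cxcl12 at 0.292 (0.189 to 0.432) and the elastic fibre genes Fbln5 at 0.427 (0.350 to 0.517) and Fbn1 at 0.210 (0.0565 to 0.550). The Wnt ligand gene Wnt2 had 0 molecules in cells with Ptn and 107 in 53 cells without, and its interval reached up to 0.256. The Wnt pathway targets Ccnd1 at 0.735 (0.678 to 0.796) and Myc at 0.659 (0.559 to 0.771) were lower as well. Gja4 had no steady side, with a ratio of 1.13 (0.975 to 1.31) in the first draw, 0.696 (0.574 to 0.837) in the second and 0.851 (0.754 to 0.959) at 100 molecules.

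The E18.5 BM library allowed a second look at fetal endothelial-like cells, with 32 cells that held Ptn and 295 that did not. Of 41 targets read in both fetal libraries, Apln, Ccnd1 and Cxcl12 were lower in cells with Ptn in both and in all 3 settings, and no target was higher in both in all 3. Hey1, Igfbp7 and Kdr lay above 1 and Kitl below 1 in both libraries in the first draw, but each lost its side in at least 1 library with another draw or at 100 molecules. In the E18.5 BM library Vwf stood high with Ptn, at 3.59 (2.22 to 5.66), as did Stab1, a scavenger receptor gene of sinusoids, at 1.65 (1.11 to 2.40). In the E18.5 EC library their ratios were 0.854 (0.754 to 0.965) and 0.807 (0.741 to 0.877), and neither kept its side in every setting.

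Adult endothelial-like cells with Ptn differed from those without it in other targets. The 49 cells with Ptn, against 1517 without, held more Ccn3 at 4.79 (2.64 to 8.14), Apln at 2.70 (1.84 to 3.86), S100a4 at 2.70 (1.97 to 3.63), the cadherin gene Cdh13 at 2.59 (1.97 to 3.36) and Ccnd1 at 1.92 (1.48 to 2.46). Igfbp7 at 1.35 (1.24 to 1.46) and Ecm1 at 1.66 (1.32 to 2.08) were higher here as in the E18.5 EC library. They held less Cxcl12 at 0.178 (0.109 to 0.276), Kitl at 0.470 (0.325 to 0.659) and the arterial genes Sema3g at 0.193 (0.114 to 0.306), Hey1 at 0.256 (0.0526 to 0.755) and Gja4 at 0.577 (0.396 to 0.813). Sema3g, Apln and Ccnd1 thus had intervals on opposite sides of 1 in the E18.5 EC and adult libraries. Cxcl12 was on the low side in endothelial-like cells of all 3 libraries and on the high side in fetal fibroblast-like cells.

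**Figure D5:**
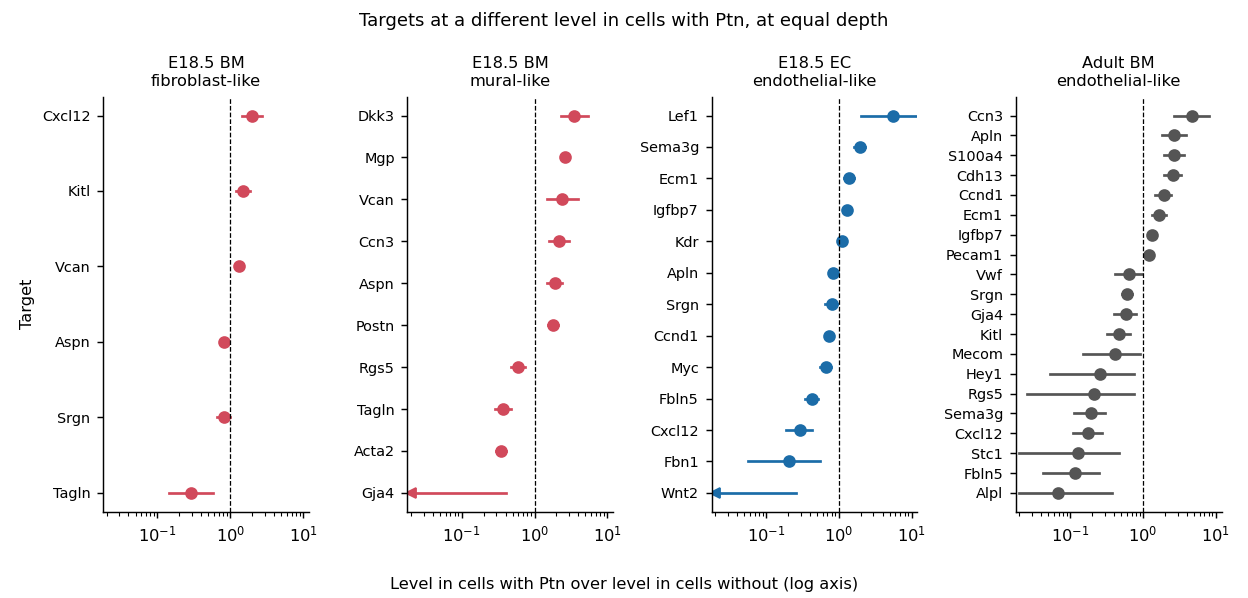
Level of a target in cells with Ptn over its level in cells without Ptn (log axis, cells thinned to 50 molecules), with exact 95% count intervals, for reported targets whose interval lay on the same side of 1 in 3 settings; the dashed line marks 1 and an arrowhead a ratio of 0. Cxcl12 lies above 1 in fetal fibroblast-like cells and below 1 in endothelial-like cells of both libraries shown.

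Across clusters of each library, the targets whose level followed Ptn most closely are given by Pearson's r of log2(level + 1), as a description. Clusters of a library share its depth and its free RNA. Over 10 clusters of the E18.5 EC library these were Kitl at r = 0.92, Ccn3 at 0.91, Wnt5b at 0.87, Fbn1 at 0.86 and Lepr at 0.84. Over 14 clusters of the E18.5 BM library they were Fbln5 at 0.92, followed by Wnt9a, Fbn1, Ccn3 and Kitl. Over 14 adult clusters the frizzled receptor gene Fzd8 came first at 0.83, and Apln, Kit and Stab1 were also in the first 5. Kitl, Ccn3 and Fbn1 were in the first 5 of both fetal libraries, and none of the 3 was in the first 5 of the adult library. In the E18.5 EC library 4 of the 10 clusters were Ptprc-rich, and Ptprc itself had r = -0.96. There r thus includes the difference between blood and other cells. Inside endothelial-like cells of that library Fbn1 was lower in cells with Ptn, at 0.210 (0.0565 to 0.550). Kitl, at 0.895 (0.811 to 0.987), did not keep its side in every setting.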

How the data were processed

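The libraries were made with the BD Rhapsody targeted assay. Headers of the deposited files name the maker's targeted pipeline, version 1.8, and the methods another version. The submitters' notes give the build mm10. The deposited values, as the authors left them, are counts of reads and of molecules per cell and target: raw, after RSEC (recursive substitution error correction) and after DBEC (distribution-based error correction). DBEC molecule counts were used. Adult cells may have had a further depletion, which the methods describe for other libraries, and the adult pipeline run has another date.

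Cells were clustered per library on 65 targets, without Wnt, niche and cell cycle targets and without Ptn (11 principal components, 20 neighbours, Leiden resolution 0.5, Python 3.11.15, scikit-learn 1.9.0, igraph 0.11.9). A cluster was named by 3 or more markers among its 10 leading targets, and as Ptprc-rich where over 50% of cells held Ptprc. Levels have exact Poisson intervals, shares exact Clopper-Pearson intervals and ratios exact conditional intervals. With 1 library per group no test was made. Ratios and thinning were tested on simulated data. Named targets were Ptn, listed niche and pathway genes on the panel, and by rank the leading, co-expressed, most correlated and most stage-different targets. The members and lists were chosen with earlier results of these data known. Results on some targets are not reported here.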

Additional observations from a re-analysis of the deposited data

How the results depend on the processing

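The fetal to adult ratios, the fibroblast-like share, the levels by class and the arterial ratios of Ptn were computed again under other settings, and the co-expressed targets with another draw and at 100 molecules. Subcluster levels, stage ratios of other targets and correlations across clusters were not. All fetal to adult ratios stayed above 1, between 13.5 and 128 in fibroblast-like, 45.9 and 615 in mural-like, 4.02 and 26.0 in endothelial-like and 10.5 and 170.1 in all marrow cells. The top of each range came from leaving out the 1% of cells with the most Ptn. The 1% was counted over all cells of a library, and Ptn was found in 3.15% of adult, 10.8% of E18.5 BM and 11.9% of E18.5 EC cells. This setting therefore took away a larger part of the adult cells with Ptn, which raises the ratios by its design. Classes from each cell's own markers gave 85.2 in fibroblast-like and 9.67 in endothelial-like cells, and a 54.8% share of Ptn in fibroblast-like cells. That share was 77.6% with RSEC and 81.8% with raw molecules, 85.9% at resolution 1.0, 96.2% when clustering on all targets but Ptn and 93.6% without cells that held markers of another class. Over all marrow cells RSEC and raw molecules gave 54.0 and 66.9, median-of-ratios scaling 40.3, molecules per cell 15.1, leaving out the 5 most abundant targets 60.7, and shares of cells thinned to 50 and 100 molecules 10.5 and 11.1. In the same order from molecules per cell, fibroblast-like cells gave 43.2, 82.2, 34.8 and 13.5. Endothelial-like cells gave 5.16 with median-of-ratios scaling, then 4.09, 5.43, 4.02 and 4.71. Chosen after seeing the data, non-arterial cells alone gave 4.33. Arterial over other endothelial-like cells turned to 1.19 in the E18.5 EC library by at least 2 arterial markers per cell, and in the adult library was 0.514 by that rule, 0.254 with 20 principal components and 0.199 with the whole cluster (chosen after seeing the data). The causes were not tested. Median-of-ratios scaling lowered the log2 ratios by a shift of 0.13 in fibroblast-like, 0.45 in mural-like, 0.29 in endothelial-like and 1.05 in all marrow cells. Of the co-expressed targets ranked highest or lowest, some turned. In fetal fibroblast-like cells Col22a1 gave 0.604 with another draw and 0.687 at 100 molecules, Cdh13 0.660 and 0.966, and Col2a1 0.745 with another draw. At 100 molecules, Spp1 gave 0.776 and Wnt9b 1.99 in the E18.5 EC library, and Cp 0.891 and Top2a 0.560 in adult endothelial-like cells. Mgp gave 0 with another draw in endothelial-like cells of the E18.5 BM library. Mural-like cells formed no class when clustering on all targets but Ptn, and the adult class had no Ptn without Pecam1 cells or at 100 molecules, so these gave no ratio. Without the minimum of 20 molecules the ratio of each target described stays as it is, since each target is read alone. No paired analysis was possible because each group is 1 library and no result comes from a test.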
